A study of Mus musculus with 6 samples.

Results

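The genes described here carry out MHC class I and class II antigen presentation, and they were measured in clear cells sorted from the caput, corpus and cauda of the mouse epididymis. They are 60 of the 37578 rows of the authors' RPKM table: 42 rows whose gene name begins with H2-, and the rows of 16 further genes chosen by name for peptide loading, the immunoproteasome, class II control and the CD1 family. All 16 were found. The 60 rows carry 58 symbols, because Psmb9 and Ciita each stand on 2 rows. By function, 45 rows belong to the class I pathway and 13 to class II. The remaining 2, H2-Ke2 and H2-Ke6, have the prefix because they lie in the MHC, and encode no presenting molecule.

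Clear cells are the epithelial cells that acidify the lumen of the epididymis with a proton pump. All mice carried an EGFP transgene driven by the promoter of ATP6V1B1, a subunit of that pump, were 12 weeks old and were not treated. EGFP+ cells were sorted in 2 rounds, and each of the 3 regions gave 2 libraries, each from 12 pooled epididymides. The strain, and with it the MHC haplotype, is not given in the sources used here.

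MHC class I molecules present peptides from inside the cell to CD8+ T cells. The proteasome cuts the peptides, the TAP transporter carries them into the endoplasmic reticulum, and the loading complex fits them to a heavy chain paired with the light chain, beta-2-microglobulin. MHC class II molecules, made chiefly by professional antigen-presenting cells, present peptides from endosomes to CD4+ T cells with the help of the invariant chain and the DM and DO proteins. The caput receives sperm from the testis and the cauda stores them.

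The deposited counts summed to between 18887128 and 24700717 reads in genes per library. Levels are given as the deposited RPKM, read counts divided by gene length and by library size, with a scaling factor the authors set for each library. Tests used edgeR's quasi-likelihood test on the counts of all 6 libraries, with Benjamini-Hochberg adjustment over the 15816 genes that passed a filter on low counts. A gene is called where its adjusted p is under 0.05, and only then is it said here to have been higher or lower. The labels do not say that the 2 libraries of a region came from separate groups of mice, so the p-values measure only the spread between libraries. Fold changes are log2 values with an approximate standard error (SE), positive where the first region named is higher.

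Levels of cell type markers differed between regions. All 8 clear cell markers tested were higher in caput than in cauda, and their summed level was 3057 and 2926 RPKM in the caput libraries, 973.9 and 1154 in the corpus and 300.6 and 387.1 in the cauda. The 9 principal cell markers summed to 4243 and 4931 RPKM in the caput, 30380 and 37910 in the corpus and 53250 and 50660 in the cauda. Nearly all of that sum outside the caput was Crisp1, a secreted protein of principal cells, at 50600 to 53190 RPKM in the cauda. Gene by gene, 6 of the 9 were higher in caput than in cauda and 3 lower, and 5 were higher in caput than in corpus and 3 lower. No marker of either list was at 0 in every library, though the principal cell markers Adam28, Cst8 and Lcn5 were at 0 in some corpus or cauda libraries. The part of this shift in the regional differences below was not tested, and fewer cells of a type and less RNA per cell cannot be told apart in bulk samples.

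Of the 60 members, 41 passed the filter. Of the untested rows, 8 were at 0 reads in every library, namely H2-M1, H2-M10.1, H2-M10.3, H2-M10.4, H2-M10.5, H2-M11 and both Psmb9 rows. The other untested rows had at most 12 reads in any library, the highest being H2-Q3 with 12 and 3 reads in the caput and at most 1 elsewhere. Psmb9 encodes a subunit of the immunoproteasome and lies beside Tap1. Its 0 reads allow at most 3 reads per library, or 0.121 to 0.159 CPM (the same count per library size, not per length), counting error only. Reads that hit 2 gene models at once are set aside as ambiguous, 1.39 to 1.83% of the records, and whether the 2 Psmb9 rows overlap is not given in the sources used here, so its level counts as not measured.

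The roles differed in their order along the duct. The light chain B2m climbed from caput to cauda, and the classical heavy chains H2-K1 and H2-D1 were not called between any regions, although H2-K1 in corpus against cauda lay at the threshold and was called in several alternatives. Most genes of peptide cutting, transport and loading were lowest in the corpus. The class II antigen-carrying genes were not called between any regions, and of the 5 class II editing genes H2-DMb1, H2-DMb2 and H2-Oa were higher in caput than in cauda while H2-DMa and H2-Ob were not called.

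Tested for any difference among the 3 regions, 21 of 29 class I pathway members and 3 of 10 class II members were called, against 75.1% of all tested genes. Between caput and cauda, 66.9% of all tested genes were called, 33.9% higher in caput and 33% lower. Of the 29 class I pathway members tested, 14 were higher in caput and 5 lower, with a median log2 difference of 0.60 against 0.04 over all tested genes. Between corpus and cauda the background was 35.4%, with 17.3% higher in corpus and 18% lower, and the class I members counted 1 higher and 11 lower, with a median of -0.25 against 0. Between caput and corpus the background was 65%, with 33.2% higher in caput and 31.8% lower, and the class I members counted 16 higher and 4 lower, with a median of 1.39 against 0.04. Scaling by library totals alone moved the median of all tested genes to 0.90, 0.27 and 0.63 in these 3 comparisons, and the class I counts became 22 higher and 4 lower, 5 higher and 9 lower, and 20 higher and 2 lower. Over all 15816 tested genes the same scaling gave 9501 higher and 2564 lower, 5154 higher and 1735 lower, and 8438 higher and 2972 lower.

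**Figure D1:**
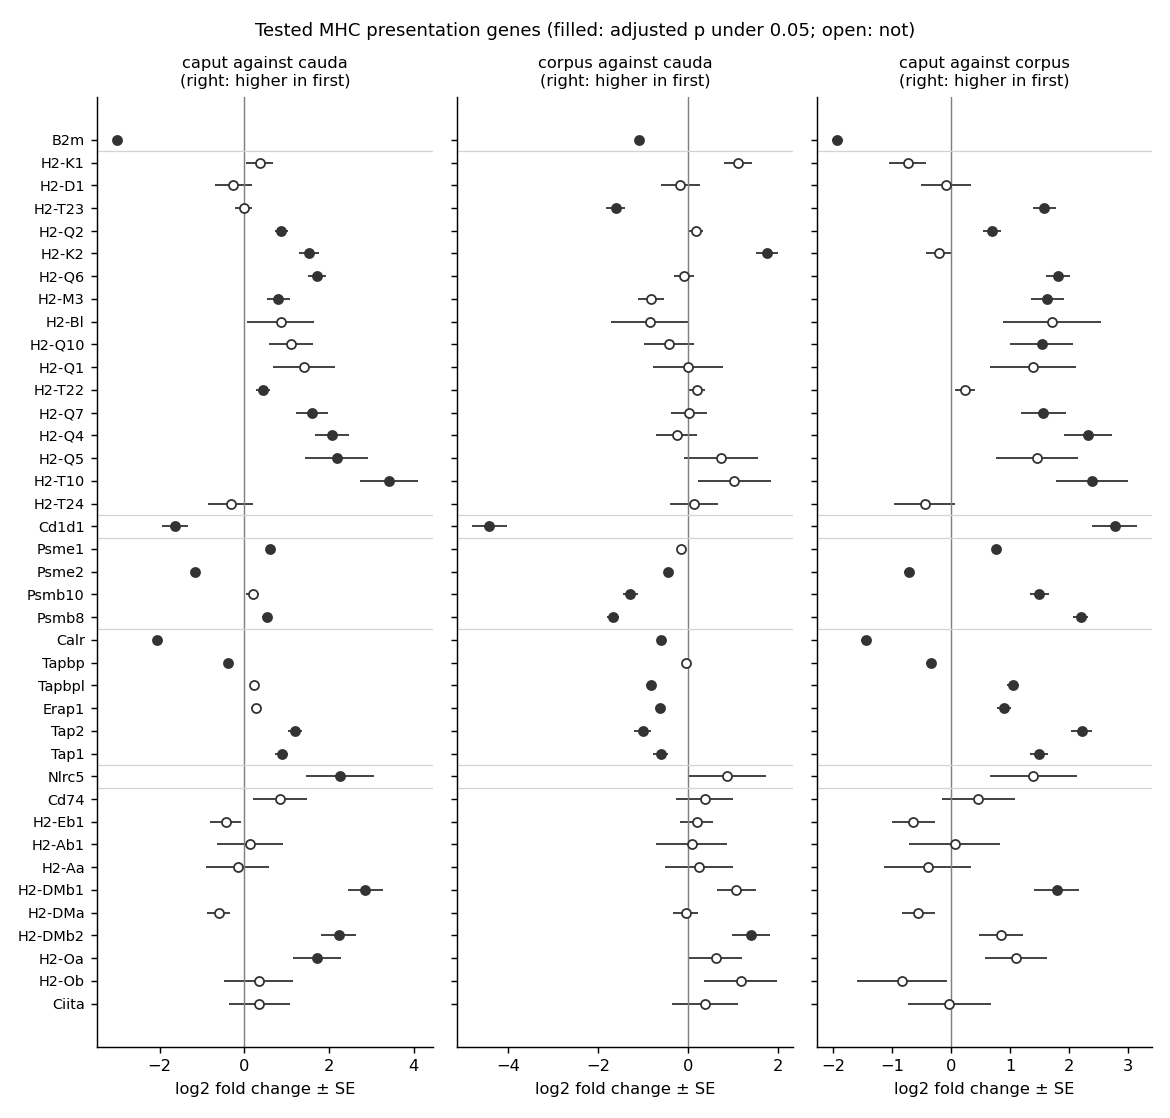
Log2 fold change ± SE of each tested member (rows, grouped by role) in the 3 comparisons of regions (panels), from edgeR's quasi-likelihood test on 2 libraries per region. Filled points have an adjusted p under 0.05. B2m and Calr lie left of 0 in all 3 panels, and Psmb8, Tap1 and Tap2 lie left of 0 for corpus against cauda and right of 0 in the other panels.

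B2m (ENSMUSG00000060802), the light chain that every classical class I molecule needs at the cell surface, was the most abundant member in every library. Its level was 2570 and 2585 RPKM in the 2 caput libraries, 9106 and 9676 in the corpus libraries, and 20820 and 18770 in the cauda libraries. The regions did not overlap, and the 2 libraries of each lay close together. B2m was 8.03-fold lower in caput than in cauda (log2 -3.01 ± 0.10 SE, n = 2 per region, adjusted p = 1.29e-08, edgeR's quasi-likelihood test), 3.80-fold lower in caput than in corpus (adjusted p = 1.66e-07) and 2.11-fold lower in corpus than in cauda (adjusted p = 1.94e-05). With library totals the differences were -2.15, -1.34 and -0.81 on the log2 scale, and with the trend on gene length removed -2.01, -1 and -1. B2m ranked 3 and 2 by RPKM among all genes in the caput, 11 and 10 in the corpus, and 9 and 10 in the cauda, so it stayed among the most abundant genes in all 6 libraries. The principal cell marker Crisp1 moved in the same order across regions as B2m. Crisp1 held nearly all of the summed principal cell markers outside the caput, and most other genes of that marker list moved otherwise. The part of principal cell RNA in the B2m levels was not tested.

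H2-K1 (ENSMUSG00000061232), a classical heavy chain that presents peptides to CD8+ T cells, stood at 553.9 and 541.3 RPKM in the caput, 632.7 and 1125 in the corpus, and 352.5 and 461.4 in the cauda. Its regions did not overlap, but the corpus libraries differed from each other by more than the caput and cauda means did. The difference of corpus from cauda was 1.11 ± 0.31 SE on the log2 scale and was not called (adjusted p = 0.0554, edgeR's quasi-likelihood test). Leaving out either corpus library brought it past the threshold, at 1.48 without the first (adjusted p = 0.00117) and 0.63 without the second (adjusted p = 0.0299), as did DESeq2 (adjusted p = 0.0112), library totals (0.0248) and removal of the length trend (0.0429). Caput differed from cauda by 0.36 ± 0.31 SE (adjusted p = 0.355), and from corpus by -0.74 ± 0.31 SE (adjusted p = 0.0965). Without the first corpus library the last difference was -1.11. The difference of caput from cauda was 0.37 without the first corpus library and 0.36 without the second, and was called with library totals (1.22, adjusted p = 0.019).

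H2-D1 (ENSMUSG00000073411), the other classical heavy chain in the table, stood at 214 and 300.6 RPKM in the caput, 185 and 339.6 in the corpus, and 235.3 and 352.9 in the cauda. All 3 regions overlapped, and the log2 differences were -0.26, -0.17 and -0.09 with adjusted p values of 0.634, 0.807 and 0.872 (edgeR's quasi-likelihood test). H2-K1 and H2-D1 together held 89 to 96.9% of the RPKM summed over all 30 heavy chain and class I-like rows. The ratio of B2m to their sum was 3.35 and 3.07 in the caput, 11.1 and 6.61 in the corpus, and 35.4 and 23.1 in the cauda. These RPKM ratios rose without overlap from region to region, while the ratio of H2-K1 to H2-D1 was 2.59 and 1.80, 3.42 and 3.31, and 1.5 and 1.31 in the same order.

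**Figure D2:**
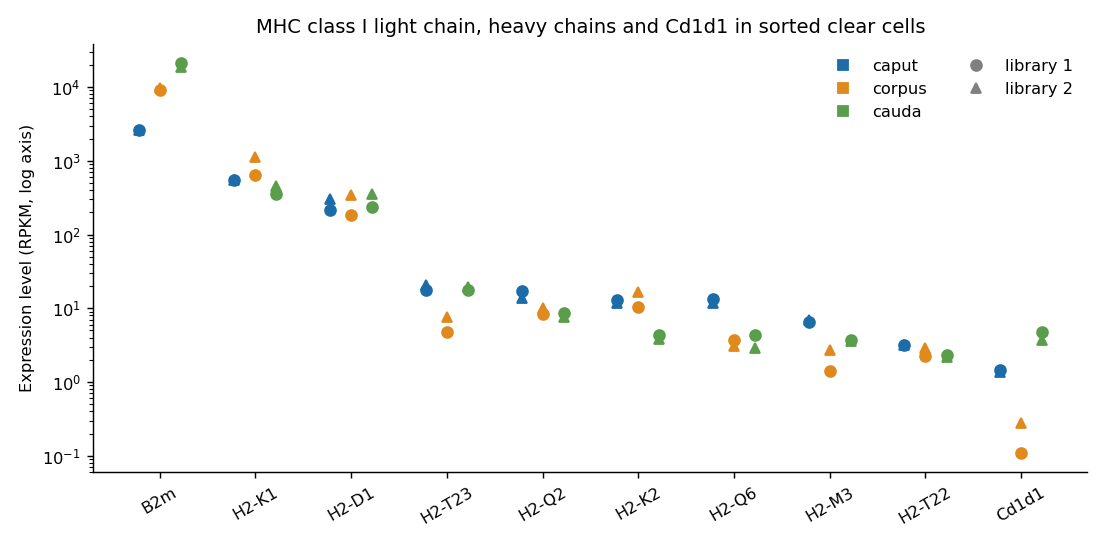
RPKM (log axis) of the light chain B2m, the more abundant heavy chains and class I-like genes, and Cd1d1 in each of the 6 libraries. Colours give the region and shapes the library. B2m spans 2570 to 20820 RPKM in the order caput, corpus, cauda, and H2-D1 overlaps between all regions.

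The promoters of B2m and H2-K1 are shown next, with that of the class II gene H2-Aa, because genes of both classes are known to share an upstream module, here searched as a cyclic AMP response element core (CRE core) followed by a CCAAT box. Each line gives the 250 bases before the RefSeq gene start (GRCm38.p6), read 5′ to 3′ on the gene's strand, with matches to the searched motifs in capitals. The windows are chr2:122147437-122147686 on the plus strand for B2m, chr17:34000348-34000597 on the minus strand for H2-K1 and chr17:34287824-34288073 on the minus strand for H2-Aa.
B2m: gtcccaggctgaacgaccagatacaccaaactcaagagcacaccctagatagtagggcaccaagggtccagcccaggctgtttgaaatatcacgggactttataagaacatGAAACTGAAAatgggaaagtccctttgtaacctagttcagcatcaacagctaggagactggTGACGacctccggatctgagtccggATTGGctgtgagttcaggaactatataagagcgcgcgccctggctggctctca
H2-K1: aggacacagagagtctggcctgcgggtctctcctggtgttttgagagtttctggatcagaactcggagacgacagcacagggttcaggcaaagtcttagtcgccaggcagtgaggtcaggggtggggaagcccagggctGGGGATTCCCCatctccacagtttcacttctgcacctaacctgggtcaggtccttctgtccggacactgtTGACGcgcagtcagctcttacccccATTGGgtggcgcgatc
H2-Aa: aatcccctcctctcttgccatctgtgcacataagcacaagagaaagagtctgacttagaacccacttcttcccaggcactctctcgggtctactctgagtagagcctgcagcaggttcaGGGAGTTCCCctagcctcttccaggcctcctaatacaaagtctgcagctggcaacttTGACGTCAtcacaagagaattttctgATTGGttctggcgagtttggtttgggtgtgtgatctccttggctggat
In B2m the capitals mark, from the left, an interferon-stimulated response element (ISRE), a CRE core (TGACG) and a CCAAT box (ATTGG). In H2-K1 they mark an NF-kB site (matched on both strands with overlap), a CRE core and a CCAAT box. In H2-Aa they mark an NF-kB site, a CRE core matched on both strands with overlap, and a CCAAT box. A letter match is a description of the window and no evidence of binding, and the lack of a match does not show that an element is absent.

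RefSeq windows were found for 41 of the 58 member symbols, and both strands were searched. The CCAAT box was in 24 of 32 class I pathway members (75%) and 8 of 8 class II members (100%), against 33.8% of all 32851 windows. The CRE core was in 15 of 32 class I members (46.9%) and 1 of 8 class II members (12.5%), against 17.8% of all windows. The ISRE pattern searched was matched in 3 of 32 (9.38%) and 0 of 8, against 2.98%. It was a strict pattern of 10 bases, and variants of the element were not counted. A window without a match, such as that of H2-K1, may thus still hold an ISRE of another form. The NF-kB site was in 5 of 32 (15.6%) and 1 of 8 (12.5%), against 0.944%. A CRE core followed by a CCAAT box on the gene's strand, with starts 23 to 26 bases apart, was in the windows of B2m, H2-K1, H2-D1, H2-M3 and H2-Q7, 5 of 32 class I members (15.6%), and of H2-Aa, against 0.116% of all windows. That spacing was chosen after the windows had been seen, and many members are near copies of each other that share their upstream sequence. Whether the paired motif bears on the regional levels of these genes was not tested.

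Heavy chain genes of the MHC beyond H2-K1 and H2-D1 include the Q, T and M genes, several of which encode nonclassical molecules with restricted peptides or ligands for innate receptors. Of the 16 heavy chain and class I-like rows tested, 9 were higher in caput than in cauda and none was lower (median log2 difference 0.99). Among all tested genes 33.9% were higher and 33% lower. Between caput and corpus 8 were higher and none lower (median 1.49), against 33.2% and 31.8%. Between corpus and cauda 1 was higher and 1 lower (median 0.02), against 17.3% and 18%. The counts of lower genes in the first 2 comparisons were 0 by edgeR's quasi-likelihood test, at an unadjusted p under 0.05 and by DESeq2 alike. Without the first corpus library, 2 were lower in caput than in corpus, H2-K1 and H2-K2. The 6 rows H2-Q2, H2-Q6, H2-M3, H2-Q7, H2-Q4 and H2-T10 were higher in caput than in both other regions, a pattern that 26.8% of all tested genes showed. These genes are near-identical in parts, and 33.11 to 38.59% of the records were set aside for mapping to several places, so the split of reads among them is uncertain.

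H2-Q6, a Qa-2 family gene, had 13.17 and 11.96 RPKM in the caput, 3.755 and 3.113 in the corpus, and 4.369 and 2.926 in the cauda. The caput libraries stood apart and the other 2 regions overlapped. H2-Q6 was higher in caput than in cauda by 1.72 ± 0.21 SE on the log2 scale (adjusted p = 5.65e-05) and than in corpus by 1.81 ± 0.21 SE (adjusted p = 4.53e-05, edgeR's quasi-likelihood test). H2-Q2 was also highest in the caput, at 17.07 and 13.96 RPKM in the caput, 8.3 and 10.12 in the corpus, and 8.609 and 7.604 in the cauda (0.87 ± 0.15 SE over cauda, adjusted p = 0.000609). The largest difference among heavy chains was that of H2-T10, at 54 and 45 reads in the caput, 7 and 4 in the corpus, and 4 and 1 in the cauda (3.41 ± 0.69 SE over cauda, adjusted p = 0.00173). It rests on few reads, and the log2 value was 4.72 without the first cauda library and 2.72 without the second.

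H2-M3 presents formylated peptides, such as those of bacteria and mitochondria. It stood at 6.542 and 6.837 RPKM in the caput, 1.431 and 2.685 in the corpus, and 3.681 and 3.639 in the cauda, with no overlap between regions. Caput exceeded corpus by 1.63 ± 0.28 SE (adjusted p = 0.000721, edgeR's quasi-likelihood test). Its difference of 0.80 between caput and cauda (adjusted p = 0.0246) was lost without the second caput library (adjusted p = 0.0544) and without the first or second cauda library (adjusted p = 0.104 and 0.11). The caput call over cauda of H2-T22 (0.44, adjusted p = 0.0428) was lost without any 1 of the 4 caput and cauda libraries (adjusted p = 0.0874 to 0.172). That of H2-Q5 (2.18, adjusted p = 0.0263) was lost without the second caput (adjusted p = 0.115) or first cauda library (0.188), and was 3.26 without the second cauda library. Between caput and corpus, H2-Q7 and H2-T10 lost their calls without the second corpus library (adjusted p = 0.0511 and 0.0864), and H2-Q10 without the first caput (0.158), first corpus (0.102) or second corpus library (0.203).

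The remaining heavy chain rows were low, and the libraries of some spread widely within regions. H2-Q7 and H2-Q4, both of the Q region, had 1.985 and 1.973 RPKM and 1.441 and 1.125 RPKM in the caput, and at most 0.8558 and 0.3237 elsewhere, with caput above cauda by 1.59 ± 0.38 SE (adjusted p = 0.00469) and 2.06 ± 0.40 SE (adjusted p = 0.00143, edgeR's quasi-likelihood test). H2-Q10, which encodes a secreted class I molecule, had 5.996 and 3.015 RPKM in the caput, 1.763 and 1.227 in the corpus, and 2.942 and 1.05 in the cauda. Only its caput excess over corpus was called (1.53 ± 0.53 SE, adjusted p = 0.0378). The excess of H2-Q10 over cauda (1.11 ± 0.52 SE) was called with library totals (1.97) and with the length trend removed (1.51).

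H2-Q1 and H2-Bl spread widely within regions, and neither was called by edgeR's quasi-likelihood test. DESeq2's Wald test called H2-Q1 higher in caput than in cauda (1.38, adjusted p = 0.0369) and in corpus (1.37, adjusted p = 0.039). It also called H2-Bl higher in caput than in corpus (1.68, adjusted p = 0.0396). H2-Q1 had 5.707 and 2.745 RPKM in the caput, 2.416 and 0.6876 in the corpus, and 2.103 and 0.9656 in the cauda, and H2-Bl had 6.81 and 2.554, 2.256 and 0.5288, and 3.5 and 1.444. H2-T22, a ligand of some gamma-delta T cells, was steadier, at 3.226 and 3.192, 2.289 and 2.909, and 2.338 and 2.192 RPKM. H2-T24 had 9 to 21 reads in each library and was not called.

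Other orders were seen for H2-T23 and H2-K2. H2-T23 encodes Qa-1, which shows leader peptides of other class I chains to CD94/NKG2 receptors on natural killer cells. It had 17.88 and 20.84 RPKM in the caput, 4.796 and 7.55 in the corpus, and 17.81 and 19.63 in the cauda. The corpus alone was low: corpus was 3.03-fold lower than cauda (adjusted p = 0.000931) and caput 3.00-fold higher than corpus (adjusted p = 0.000371, edgeR's quasi-likelihood test). Caput and cauda overlapped, at a log2 difference of -0.02 that became 0.84 (adjusted p = 0.004) with library totals. In H2-K2 the cauda alone was low, with 12.78 and 11.87 RPKM in the caput, 10.51 and 16.83 in the corpus, and 4.325 and 3.815 in the cauda. Caput exceeded cauda by 1.53 ± 0.23 SE (adjusted p = 0.000308), and caput against corpus was not called (-0.21, adjusted p = 0.403, edgeR's quasi-likelihood test). H2-K2 was the only heavy chain called higher in corpus than in cauda (1.75 ± 0.24 SE, adjusted p = 0.000421).

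Cd1d1 encodes CD1d, which presents lipids to natural killer T cells and also pairs with beta-2-microglobulin. It had 122 and 98 reads in the caput, 5 and 14 in the corpus, and 210 and 172 in the cauda, or 1.478 and 1.356, 0.11 and 0.2776, and 4.777 and 3.669 RPKM. No regions overlapped, and the corpus was lowest. Corpus was 21.3-fold lower than cauda (log2 -4.41 ± 0.38 SE, adjusted p = 2.45e-05), caput 6.83-fold higher than corpus (adjusted p = 0.000168) and caput 3.11-fold lower than cauda (adjusted p = 0.000892, edgeR's quasi-likelihood test). Without the second corpus library the log2 difference of corpus from cauda was -5.24 and that of caput from corpus 3.60.

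Class I-like genes outside the H2 names were also listed, 11 in the table of which 8 were tested. Between corpus and cauda 1 was higher and 4 were lower, between caput and corpus 4 were higher, and between caput and cauda 3 were higher and 3 lower. Among all tested genes the shares higher and lower were 17.3% and 18%, 33.2% and 31.8%, and 33.9% and 33%. Mr1, which presents vitamin B metabolites to mucosal-associated T cells, had 21.3 and 19.89 RPKM in the caput, 3.404 and 3.865 in the corpus, and 34.79 and 29.64 in the cauda. Like Cd1d1 it was lowest in the corpus, at -3.15 ± 0.12 SE against cauda (adjusted p = 2.81e-07, edgeR's quasi-likelihood test). Fcgrt, the neonatal Fc receptor that carries IgG across epithelia, fell along the duct instead, from 76.26 and 72.75 RPKM in the caput to 17.58 and 19.96 in the corpus and 10.81 and 12.61 in the cauda.

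The immunoproteasome replaces standard catalytic subunits with Psmb8, Psmb9 and Psmb10, and the PA28 activator is made of Psme1 and Psme2. All 4 tested members were called for a difference among the 3 regions, as were 75.1% of all tested genes. Psmb8 had 13 and 12.03 RPKM in the caput, 2.553 and 2.704 in the corpus, and 8.801 and 7.762 in the cauda. Its regions were well apart, with corpus 3.15-fold lower than cauda (adjusted p = 1.71e-05) and caput 4.56-fold higher than corpus (adjusted p = 6.62e-07) and 1.45-fold higher than cauda (adjusted p = 0.00356, edgeR's quasi-likelihood test). Psmb10 had 32.79 and 29.94 RPKM in the caput, 9.25 and 12.17 in the corpus, and 29.1 and 23.08 in the cauda. It too was lowest in the corpus, at -1.28 ± 0.16 SE against cauda (adjusted p = 0.000305), and was not called between caput and cauda (adjusted p = 0.275) except with library totals (1.06) or the length trend removed (0.92).

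The parts of PA28 differed in opposite directions between the caput and the other regions. Psme1 had 100.2 and 99.1 RPKM in the caput, 55.17 and 57.56 in the corpus, and 64.2 and 61.56 in the cauda, and was higher in caput than in cauda (0.60 ± 0.07 SE, adjusted p = 6.42e-05) and in corpus (0.76 ± 0.07 SE, adjusted p = 1.45e-05, edgeR's quasi-likelihood test). Psme2 had 36.52 and 36.94 RPKM in the caput, 57.86 and 57.8 in the corpus, and 81.26 and 75.37 in the cauda, and rose at each step, with caput below cauda by -1.16 ± 0.08 SE (adjusted p = 9.6e-07). Its separate steps were lost with library totals, at -0.13 for caput against corpus (adjusted p = 0.173) and -0.17 for corpus against cauda (adjusted p = 0.104).

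Most other proteasome genes followed a different order from Psmb8 and Psmb10. The list held 16: the replaced catalytic subunits, subunits that both forms of the proteasome share, and the activators Psme3 and Psme4. Of these, 13 were lower in caput than in cauda and 1, Psme3, was higher (median -0.88), against 33% and 33.9% of all tested genes. In corpus against cauda 8 were lower (median -0.25), against 18%. In caput against corpus 12 were lower (median -0.59), against 31.8%. Psmb5, whose place Psmb8 takes, had 36.48 and 34.34 RPKM in the caput, 63.04 and 57.04 in the corpus, and 67.24 and 72.99 in the cauda. The ratio of Psmb8 to Psmb5 was 0.356 and 0.350 in the caput, 0.0405 and 0.0474 in the corpus, and 0.131 and 0.106 in the cauda. The ratio of Psmb10 to Psmb7, the subunit it replaces, was 0.541 and 0.501, 0.0978 and 0.118, and 0.269 and 0.211 in the same order. Both ratios, taken within each library, separated the regions without overlap, highest in the caput and lowest in the corpus.

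**Figure D3:**
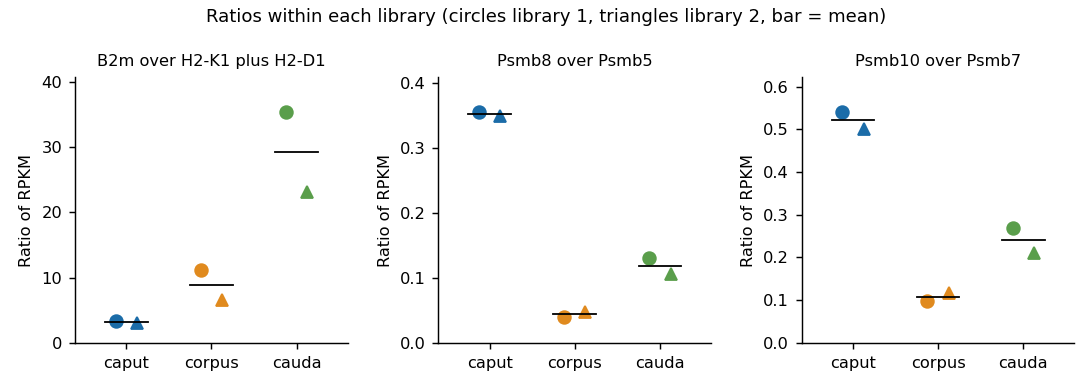
Ratios of RPKM within each library (vertical axes, from 0) by region: B2m over the sum of H2-K1 and H2-D1, Psmb8 over Psmb5, and Psmb10 over Psmb7. Circles are library 1, triangles library 2 and bars the mean of the 2. The first ratio is highest in the cauda (35.4 and 23.1), and the proteasome ratios are lowest in the corpus (0.0405 and 0.0474 for Psmb8 over Psmb5).

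Peptides reach the endoplasmic reticulum through TAP, a pair of Tap1 and Tap2. Tap1 had 4.493 and 5.27 RPKM in the caput, 1.573 and 1.75 in the corpus, and 2.579 and 2.49 in the cauda. Tap2 had 7.607 and 6.262, 1.389 and 1.486, and 3.338 and 2.456 RPKM in the same order. Both were highest in the caput and lowest in the corpus, with no overlap between regions. Caput exceeded corpus by 1.49 ± 0.15 SE for Tap1 (adjusted p = 2.4e-05) and 2.21 ± 0.18 SE for Tap2 (adjusted p = 5.58e-06), and corpus lay below cauda by -0.61 ± 0.16 SE (adjusted p = 0.015) and -1.01 ± 0.19 SE (adjusted p = 0.00269, edgeR's quasi-likelihood test). The last call of Tap1 was lost with library totals (-0.34, adjusted p = 0.111) and without the first corpus (adjusted p = 0.105), first cauda (0.077) or second cauda library (0.0599).

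Erap1 trims peptides to the length that fits class I. It had 11.71 and 9.385 RPKM in the caput, 5.527 and 5.302 in the corpus, and 8.554 and 8.067 in the cauda, and Tapbpl, the TAPBPR peptide editor, had 19.31 and 18.55, 9.083 and 8.506, and 16.2 and 14.76. Both were lowest in the corpus, at -0.62 ± 0.12 SE against cauda for Erap1 (adjusted p = 0.00324) and -0.82 ± 0.11 SE for Tapbpl (adjusted p = 0.000305, edgeR's quasi-likelihood test), and neither was called between caput and cauda (0.28 and 0.23). Alternatives did call them higher in caput than in cauda: both with library totals (1.14 and 1.09) and without the filter on low counts (0.34 and 0.29). Tapbpl was also called with the length trend removed (0.37), and Erap1 stood at 0.42 without the second caput library. In all, 6 of the 10 tested processing and loading members, Psmb8, Psmb10, Tap1, Tap2, Tapbpl and Erap1, were lower in corpus than in both other regions, against 6.1% of all tested genes. The count was 5 with library totals and 5 or 6 in every other alternative run. The 10 endothelial and stromal markers also summed lowest in the corpus, at 75.14 and 70.09 RPKM against 312.4 and 326.4 in the caput and 194.1 and 233.6 in the cauda. Dcn, decorin, stood at 307.4 and 308.2, 43.01 and 45.01, and 168.1 and 192.2 RPKM. It made up nearly all of the sum in the caput and a smaller part in the corpus and cauda. Without Dcn the sum was not lowest in the corpus. The endothelial marker Pecam1 was at no more than 0.3187 RPKM. The part of such cells in the dip was not tested.

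**Figure D4:**
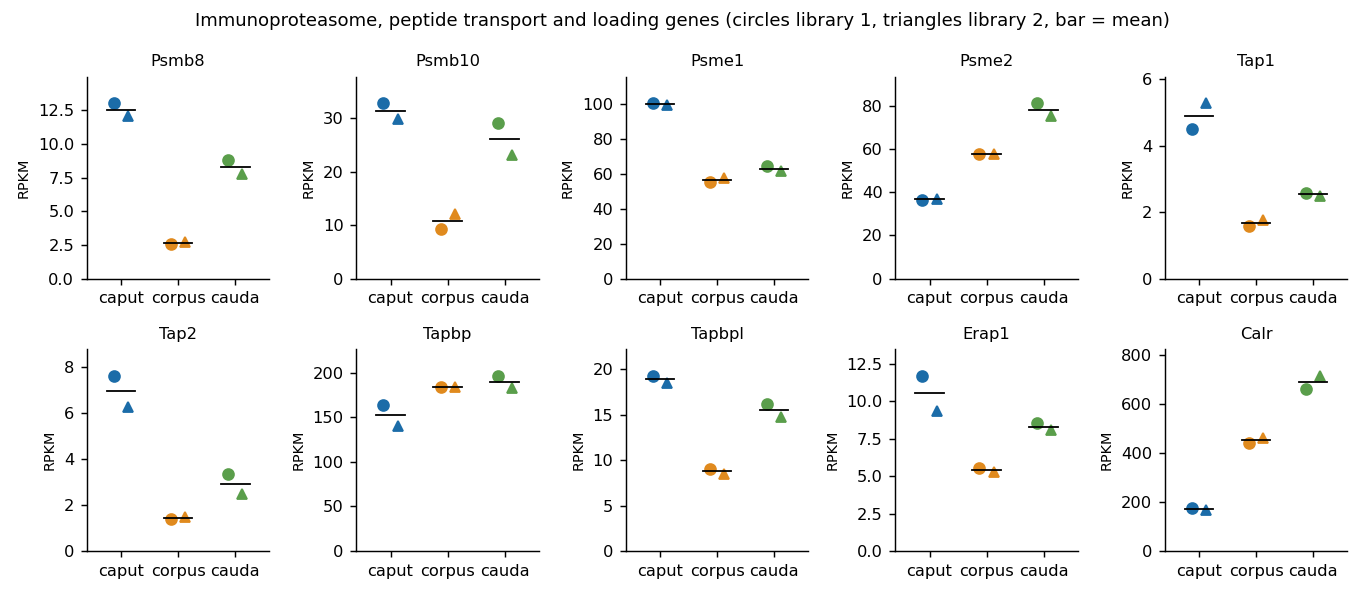
RPKM (vertical axes, from 0) of 10 immunoproteasome, transport and loading genes by region. Circles are library 1, triangles library 2 and bars the mean of the 2. Psmb8, Psmb10, Tap1, Tap2, Tapbpl and Erap1 dip in the corpus, and Psme2 and Calr climb from caput to cauda.

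Calr, calreticulin, a chaperone of many glycoproteins that also belongs to the class I loading complex, followed B2m rather than TAP. It had 176.1 and 168.5 RPKM in the caput, 438 and 462.1 in the corpus, and 660.6 and 713.8 in the cauda, a 4.17-fold difference between caput and cauda (log2 -2.06 ± 0.08 SE, adjusted p = 4.18e-08, edgeR's quasi-likelihood test). B2m, Calr and Psme2 were the only members called at both steps of a rise from caput to cauda, a pattern of 6.87% of all tested genes. Most of the other genes listed for class I folding were lower in caput too. Of 10, 9 were lower in caput than in cauda, against 33% of all tested genes. Sec61b, of the channel into the endoplasmic reticulum, had 42.38 and 42.9, 107.2 and 119.9, and 176 and 186.6 RPKM (-2.15 ± 0.09 SE for caput against cauda, adjusted p = 4.37e-08). Tapbp, tapasin, which bridges TAP to the heavy chain, varied little, from 140 to 196.6 RPKM. Its difference of -0.38 between caput and cauda (adjusted p = 0.00359) turned to 0.48 with library totals (adjusted p = 0.000469), and its call between caput and corpus (-0.34, adjusted p = 0.00726) was lost without the second caput library (adjusted p = 0.0671) and turned to 0.25 with library totals.

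The regulators were scarce or varied. Nlrc5, the transactivator of class I genes, had 82 and 31 reads in the caput, 10 and 15 in the corpus, and 1 and 12 in the cauda. Caput exceeded cauda by 2.25 ± 0.80 SE (adjusted p = 0.0341, edgeR's quasi-likelihood test), and that call was lost without the first caput library (1.54, adjusted p = 0.147), without the first cauda library (1.41, adjusted p = 0.148) and without either corpus library (0.0728 and 0.0733). Without the second cauda library it was 4.78. Of 7 listed factors of the upstream module, 3 were higher in caput than in cauda and 2 lower, against 33.9% and 33% of all tested genes. Rfx5, a subunit of the RFX complex that binds there, had 3.175 and 2.455 RPKM in the caput, 0.9508 and 0.7578 in the corpus, and 0.9521 and 0.7666 in the cauda (1.65 ± 0.21 SE over cauda, adjusted p = 9.66e-05).

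Interferon-gamma is the best-known inducer of the pathway, and 10 genes of its signalling were listed. Between caput and cauda 5 were higher and 1 lower, between corpus and cauda 3 and 2, and between caput and corpus 6 and 2. The shares of all tested genes were 33.9% and 33%, 17.3% and 18%, and 33.2% and 31.8%. The receptor chain Ifngr2 had 30.39 and 29.75 RPKM in the caput, 8.405 and 8.135 in the corpus, and 6.75 and 8.055 in the cauda. The other chain, Ifngr1, had 52.52 and 48.33 RPKM in the caput, 29.87 and 30.46 in the corpus, and 26.67 and 24.94 in the cauda. Both chains were higher in caput than in cauda and than in corpus. Irf1, a transcription factor of class I and immunoproteasome genes, had 14.54 and 13.17, 5.896 and 5.128, and 11.84 and 10.09 RPKM, lower in corpus than in cauda by -1 ± 0.12 SE (adjusted p = 0.000209) and not called between caput and cauda (adjusted p = 0.0602, edgeR's quasi-likelihood test). Its order was that of Psmb10 and Tapbpl, whereas Irf9, of the type I interferon complex, was highest in the corpus at 34.24 and 34.94 RPKM. Whether either factor bears on the levels of the members was not tested.

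Class II rows summed to 62.1 to 193.5 RPKM per library, against 639.7 to 1512 for the class I heavy chain rows. Of the 13 rows, 10 were tested, and 3 were higher in caput than in cauda (median 0.35), 1 higher in corpus than in cauda (median 0.38) and 1 higher in caput than in corpus (median 0.01). The share of 3 in 10 higher in caput than in cauda lies near the 33.9% of all tested genes. For corpus over cauda and caput over corpus the shares of all tested genes were 17.3% and 33.2%. None was lower in any of the 3 comparisons by edgeR's quasi-likelihood test, at an unadjusted p under 0.05 (0 each) or by DESeq2. With the second caput library left out, 2 were lower in caput than in cauda and 3 lower in caput than in corpus.

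Cd74, the invariant chain that guides class II molecules to endosomes, was the most abundant of them. It had 63.37 and 116.9 RPKM in the caput, 46.36 and 78.99 in the corpus, and 28.14 and 68.55 in the cauda. The regions overlapped, and caput differed from cauda by 0.84 ± 0.63 SE (adjusted p = 0.309, edgeR's quasi-likelihood test). The chains that hold the peptide follow. H2-Aa had 4.945 and 14.6 RPKM in the caput, 8.307 and 16.29 in the corpus, and 7.173 and 13.61 in the cauda. H2-Ab1 had 6.497 and 21.73, 9.769 and 16.2, and 7.973 and 16.56. H2-Eb1 had 8.879 and 15.92, 16.08 and 20.85, and 12.27 and 19.92 RPKM. The second library was the higher in every region for all 3, and no regional difference of these 3 genes was called. Ciita, the master regulator of class II, had 7 to 36 reads on its main row and was not called.

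In each region the library with more class II RNA was the one with more lymphocyte RNA. The class II rows summed to 98.89 and 193.5 RPKM in the caput, 89.97 and 144.8 in the corpus, and 62.1 and 127.6 in the cauda, and the 10 lymphocyte markers to 1.515 and 13.82, 14.53 and 21.92, and 2.53 and 13.2. B cell markers made up most of the latter: Cd79a, of the B cell receptor, had 1.154 and 5.943 RPKM, 6.935 and 9.891, and 1.182 and 6.096. The T cell marker Cd8a was at 0 in 5 of the 6 libraries and the cytotoxic marker Nkg7 in all. The 22 mononuclear phagocyte markers summed to 24.72 and 15.27 RPKM, 17.87 and 11.12, and 19.59 and 14.25, higher in the other library each time. The 7 sperm markers were higher in the same library as class II, at 41.17 and 322.1 RPKM, 0.3207 and 55.81, and 28.32 and 90.26. Of the class II members tested, 9 of 10 were higher in library 2 in all 3 regions, against 11.9% of all tested genes and 3 of 16 heavy chains. The reverse, library 1 higher in all 3 regions, held for 7 of 16 heavy chains and 3 of 6 transport and loading members. Among all tested genes that share was 19.8%, and among class II members it was 0. The part of lymphocyte or sperm RNA, or of what else set these libraries apart, in the class II levels was not tested.

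**Figure D5:**
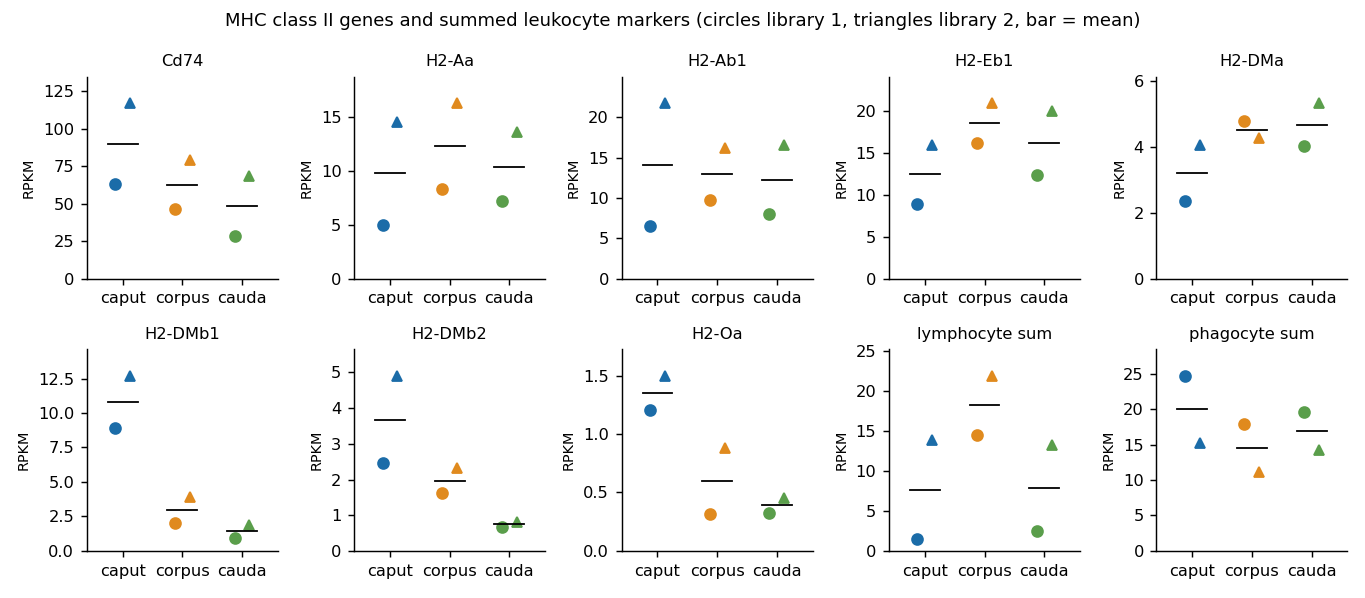
RPKM (vertical axes, from 0) of 8 class II genes and the summed RPKM of lymphocyte and mononuclear phagocyte markers by region. Circles are library 1, triangles library 2 and bars the mean of the 2. Cd74, H2-Aa, H2-Ab1 and H2-Eb1 overlap between regions, and H2-DMb1 and H2-DMb2 are high in the caput.

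DM, made of H2-DMa with H2-DMb1 or H2-DMb2, exchanges peptides on class II, and DO, made of H2-Oa and H2-Ob, restrains it. H2-DMb1 had 8.907 and 12.7 RPKM in the caput, 2.031 and 3.933 in the corpus, and 0.9723 and 1.86 in the cauda. Its regions did not overlap, and caput was 7.25-fold higher than cauda (log2 2.86 ± 0.41 SE, adjusted p = 0.000535) and 3.45-fold higher than corpus (adjusted p = 0.00426, edgeR's quasi-likelihood test). H2-DMb2 had 2.453 and 4.906 RPKM in the caput, 1.625 and 2.315 in the corpus, and 0.6722 and 0.8195 in the cauda, with caput above cauda by 2.23 ± 0.41 SE (adjusted p = 0.00094) and corpus above cauda by 1.40 ± 0.42 SE (adjusted p = 0.0279). Without the second caput library the caput difference of H2-DMb2 was 1.63, and the corpus call was lost without either corpus or either cauda library (adjusted p = 0.0526 to 0.171). The 2 beta genes are near copies, so their split is uncertain.

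H2-DMa, the alpha chain both need, had 2.365 and 4.041 RPKM in the caput, 4.768 and 4.268 in the corpus, and 4.021 and 5.312 in the cauda. It was not called, at -0.61 ± 0.28 SE between caput and cauda (adjusted p = 0.0815, edgeR's quasi-likelihood test), although without the second caput library it was lower in caput (-1.06, adjusted p = 0.00495). Its order was thus not that of the beta genes. H2-Oa had 56 and 61 reads in the caput, 8 and 25 in the corpus, and 8 and 12 in the cauda, with caput above cauda by 1.72 ± 0.56 SE (adjusted p = 0.0209). That call was lost without the second caput library (adjusted p = 0.0511) or either cauda library (0.129 and 0.0693). H2-Ob had 11 and 56, 22 and 53, and 12 and 19 reads and was not called.

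The endosomal enzymes that prepare class II peptides were abundant and did not share an order. Of 9 listed, 3 were higher and 2 lower in caput than in cauda, 2 higher and 3 lower in corpus than in cauda, and 4 higher and 3 lower in caput than in corpus. In the same order, all tested genes gave 33.9% and 33%, 17.3% and 18%, and 33.2% and 31.8%. Ctsl, cathepsin L, had 823 and 770.6 RPKM in the caput, 246.5 and 253.4 in the corpus, and 401.9 and 356.8 in the cauda, lowest in the corpus like TAP. Ctsh, cathepsin H, was highest there, at 215.6 and 214.9 RPKM against 26.17 and 21.1 in the caput and 67.44 and 53.93 in the cauda. Ctss, cathepsin S, the main protease of the invariant chain in professional antigen-presenting cells, stood at 2.049 to 5.056 RPKM and was not called.

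Costimulatory and checkpoint ligands, the second signal beside a presented peptide, were highest in the caput. All 6 tested of 8 listed were higher in caput than in cauda and than in corpus, against 26.8% of all tested genes. Vtcn1, the inhibitory ligand B7-H4, had 20.62 and 26.91 RPKM in the caput, 0.2015 and 0.2179 in the corpus, and 0.3333 and 0.3516 in the cauda (6.04 ± 0.25 SE over cauda, adjusted p = 5.69e-08, edgeR's quasi-likelihood test). Cd276, or B7-H3, had 3.356 and 2.401, 0.1862 and 0.1678, and 0.05349 and 0.06018 RPKM, and Cd274, or PD-L1, had 2.588 and 2.079, 0.6275 and 0.6208, and 0.3956 and 0.6233. The classical costimulators Cd80 and Cd86 were too low to test, at no more than 0.1807 RPKM in any library. The clear cell marker sum was likewise highest in the caput, and its part in these levels was not tested.

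H2-Ke2, a prefoldin subunit with the H2 prefix, had 33.37 and 35.1 RPKM in the caput, 84.87 and 81.23 in the corpus, and 79.61 and 77.35 in the cauda, lower in caput than in cauda by -1.26 ± 0.08 SE (adjusted p = 6.86e-07, edgeR's quasi-likelihood test). H2-Ke6, a steroid dehydrogenase, stood at 0.4842 to 0.6665 RPKM and was not called.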

How the data were processed

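RNA from sorted EGFP+ clear cells was isolated with a PicoRNA kit, made into libraries with the Clontech SMARTer kit and sequenced on an Illumina HiSeq instrument, as the labels' protocols state. The authors deposited a read count per gene for each of the 6 libraries and a table of RPKM values with gene lengths; the submitters' processing notes name STAR, HTSeq, edgeR and the build mm9, without versions or an annotation release. Records without a gene made up part of each file and stayed out of library sizes: 33.11 to 38.59% mapped to several places, 6.67 to 9.48% hit no gene and 1.39 to 1.83% were ambiguous. The deposited RPKM equal the counts over length and total, divided by a factor of 0.774 to 1.387 per library.

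Counts were tested as deposited with edgeR 4.0.16 in R 4.3.3 (robust quasi-likelihood fit on a region factor with 3 residual degrees of freedom, after TMM scaling and the filterByExpr filter), with Benjamini-Hochberg adjustment over 15816 genes and calls at 0.05. The fit was tested on simulated data. DESeq2 1.42.0 was an alternative, among 13. Standard errors are the log2 fold change over the root of F. Every tested member is named, with each library's value for abundant or called members. From each further pathway list the 2 called genes with the smallest adjusted p per comparison and direction could be named; Ctss, Cd274, Cd80, Cd86, Psmb5 and Psmb7 were added after their values were seen. The members, lists and tests were chosen with earlier results of these data known, so their counts are descriptions. Promoter windows came from RefSeq (GRCm38.p6) and were matched by symbol; no coordinates were taken from the mm9 files.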

Additional observations from a re-analysis of the deposited data

How the results depend on the processing

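Counts of called class I and class II members were recomputed in 13 alternatives. With library totals, higher class I members went from 14 to 22 between caput and cauda and from 1 to 5 between corpus and cauda, lower ones from 4 to 2 between caput and corpus, and higher class II members from 1 to 2 between corpus and cauda and from 1 to 3 between caput and corpus. Library totals also reversed H2-T23 to 0.84 between caput and cauda, and Tapbp to 0.48 between caput and cauda, 0.23 between corpus and cauda and 0.25 between caput and corpus. This scaling moved the median log2 difference of all tested genes from 0.04 to 0.90, from 0 to 0.27 and from 0.04 to 0.63 in these comparisons, and these members moved by about the same amounts. With the gene length trend removed, H2-K2 turned to 0.55 between caput and corpus, class I members higher in corpus than in cauda numbered 2 and class II members higher in caput than in corpus 3. DESeq2's Wald test gave 2 class I members higher in corpus than in cauda, and no filter on low counts gave 2 class II members higher in caput than in corpus. The cause of the shifts other than that of library totals was not tested.

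The replicate numbers of the labels are not said to pair libraries. Over 15816 genes the deviations of same-numbered libraries correlated at 0.19 (caput and corpus), 0.16 (caput and cauda) and 0.13 (corpus and cauda), with 2 pairs per comparison. With the replicate number as a block, class I calls were 18 higher and 6 lower between caput and cauda, 2 and 13 between corpus and cauda, and 19 and 5 between caput and corpus. Class II calls under the block were 4 higher and 2 lower, 3 and 0, and 4 and 2. The block called Cd74 in all 3 (0.89, 0.44 and 0.45), H2-Eb1 lower in caput than in cauda (-0.45) and corpus (-0.67), H2-Aa lower in caput than in corpus (-0.48), H2-K1 higher in corpus than in cauda (1.08) and caput (-0.69 for caput against corpus), and H2-D1 lower in caput than in cauda (-0.25).

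Leaving out each library in turn, higher and lower class I calls ranged from 11 to 14 and 5 to 5 between caput and cauda, 1 to 2 and 10 to 12 between corpus and cauda, and 13 to 17 and 3 to 6 between caput and corpus. Class II calls ranged from 2 to 3 and 0 to 2, from 0 to 1 and 0 to 0, and from 1 to 2 and 0 to 3. The single class II member higher in corpus than in cauda, H2-DMb2, was lost without either corpus or either cauda library (H2-DMb1 was called instead without the first corpus library), and the lower class II calls appeared without the second caput library. A region left with a single library is assumed to vary like the others. The count of 6 processing and loading members lowest in the corpus ranged from 5 to 6, an alternative added after the data were seen. Genes with few reads, such as H2-T10, Nlrc5 and H2-Oa, are limited by depth.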
